A study of Mus musculus with 12 samples.

Results

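The comparison described here set unstressed liver of mice lacking ATF6α against unstressed liver of wild-type mice. It rests on 6 of the 12 arrays of the series. The labels defined it by *Atf6a* genotype +/+ or -/-, treatment with 150 mM dextrose, and collection 8 h after injection. There were 3 animals of each genotype, 1 array per animal. The other 6 arrays came from animals of the same genotypes given tunicamycin (TM) at 2 mg/kg in the same dextrose, and they entered only as a measure of spread and for values set side by side. RNA was taken from whole liver homogenate, so that fewer cells of a type and less RNA per cell cannot be told apart. Animals were of mixed age and gender, and neither was given per animal. The -/- genotype was that of the whole animal, and strain was not stated in the labels. Values were log2 signals from the robust multi-array average (RMA) of Affymetrix probesets, and every difference below is *Atf6a*-/- minus wild type on the log2 scale.

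ATF6α is one of the sensors of the unfolded protein response (UPR). It sits in the membrane of the endoplasmic reticulum (ER) and moves to the Golgi upon ER stress, where the site-1 and site-2 proteases release a fragment that activates transcription. Its known targets encode ER chaperones, oxidoreductases and components of ER-associated degradation, and many of them carry an ER stress response element (ERSE) in the promoter, to which ATF6 binds together with the factor NF-Y. IRE1, which splices *Xbp1* mRNA, and PERK, which leads to translation of *Atf4*, form the other arms. The comparison asks how mRNA levels differ without ATF6α when no ER stress is imposed.

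The liver identity of the arrays was plain. The 8 hepatocyte markers had mean levels between 12.90 and 14.90, against a median of 5.07 over all probesets, and their pooled standard deviation (SD) within vehicle groups had a median of 0.04. The vehicle arrays did not differ evenly, however. Y-linked genes were present in wild-type animal 2 and *Atf6a*-/- animal 3, 1 animal of each genotype. *Eif2s3y*, a Y-linked translation factor gene, read 8.47 and 8.98 in those arrays and 3.10 to 3.36 in the other 4. *Xist*, the RNA that silences an X chromosome, read 6.11 and 6.33 against 11.70 to 12.17. These 2 arrays correlated with each other at 0.996 across probesets and with the other 4 at 0.987 to 0.991. The Y-linked signal was thus balanced between the genotypes, and its values are given beside the results it moved with.

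*Atf6* itself was lower in the *Atf6a*-/- animals on each of its 3 probesets. The brightest probeset read 8.74, 9.47 and 8.90 in wild-type animals and 7.03, 7.15 and 7.79 in *Atf6a*-/- animals. The groups were well apart, and the difference was -1.71 ± 0.24 (SE, n = 3 and 3), or 3.27-fold. The second probeset read 7.86, 8.17 and 8.18 against 6.84, 7.02 and 7.07, a difference of -1.09. The third read 6.33, 6.98 and 6.76 against 6.03, 5.87 and 5.87, a difference of -0.77. On none of the 3 probesets did the groups overlap. Even so, the limma adjusted p was 0.184 for the first and second probesets and 1.00 for the third, none of them past 0.05. Signal from the probesets of the deleted gene remained above the median of all probesets, and whether these probes lie within the deleted part was not analysed here. With TM the differences of the 3 probesets, in the same order, were -0.82, -0.20 and -0.70 (limma adjusted p = 0.0905, 0.625 and 0.0738).

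No probeset passed an adjusted p of 0.05 and a 1.5-fold difference between the genotypes with vehicle, 0.0% of 45037 tested with limma. The smallest adjusted p was 0.184, shared by 3 probesets, 2 of *Atf6* and 1 of *Pklr*, and every other probeset was at 1.00. At an unadjusted p under 0.05 there were 1618 probesets, 3.59% of those tested, of which 47 were also over 1.5-fold higher and 88 over 1.5-fold lower. Counted by gene these were 3.88%, with 1.8% higher and 2.07% lower. Among 18193 genes, each taken at its brightest probeset, the median difference was 0.00 and the median absolute difference 0.08. The means of 139 genes lay over 1.5-fold apart, and in 33 of these the groups did not overlap. Over all genes the groups failed to overlap for 8.53%, 882 higher (4.85%) and 669 lower (3.68%) in *Atf6a*-/- liver, and this is the background for the counts below.

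The data also bound how large an undetected difference could be. The 95% interval of the genotype difference lay wholly within 1.5-fold in either direction for 15913 genes, or 87.5%. It lay within 1.2-fold for 13.7% and within 2-fold for 97.6%. The interval reached 0.27 to either side of the difference in the median gene, which is 1.2-fold. For the remaining genes a 1.5-fold difference was not bounded by the interval. The share within 1.5-fold was 82.9% of the 11825 genes above the median level of all probesets. It was 96.0% of the 6368 genes at or below that level, so dim genes raised the share. The intervals were not adjusted for the number of probesets.

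**Figure D1:**
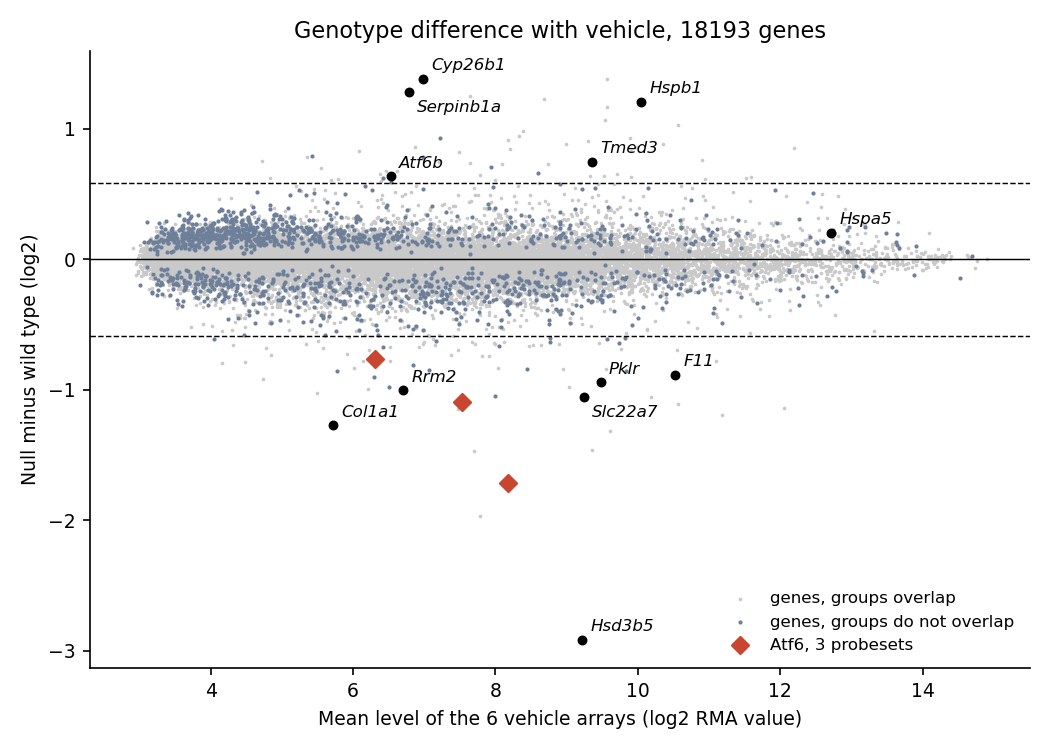
Genotype difference with vehicle (log2, vertical axis) against the mean level of the 6 vehicle arrays (log2 RMA value, horizontal axis) for 18193 genes, with the 3 *Atf6* probesets as diamonds. Dark points are genes whose groups do not overlap, and dashed lines mark 1.5-fold. The brightest *Atf6* probeset lies at -1.71, while most genes stay between the dashed lines.

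The promoters of the ATF6 targets show where the factor is known to act. The strict element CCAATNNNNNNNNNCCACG was searched on both strands of the 300-base RefSeq windows (GRCm38.p6) that span each gene start. It was found in 39 of 32851 windows, or 0.119%. Of the 20 measured genes that carry it, 9 are among the 20 measured ATF6 targets. The related element ERSE-II, ATTGGNCCACG, was found in 12 windows, or 0.0365%, and no window search was made for looser forms. A match is a description of the letters and not evidence of binding here. Of the 9 measured genes with ERSE-II, 2 are among the ATF6 targets. The stretches below show the element of 9 targets, and of *Herpud1* for ERSE-II, with the outer 5-letter blocks in capitals. Only elements that end before the gene start are shown, which leaves out the other ERSE-II target. All are written 5′ to 3′ along the gene's own strand, so that the element reads reversed where the blocks are CGTGG and ATTGG, and *Hsp90b1* carries 2.
Hspa5, chr2:34772013-34772055, plus strand: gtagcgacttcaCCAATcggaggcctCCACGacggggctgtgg
Hsp90b1, chr10:86705521-86705563, minus strand: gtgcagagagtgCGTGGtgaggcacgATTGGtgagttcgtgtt
Hsp90b1, chr10:86705626-86705668, minus strand: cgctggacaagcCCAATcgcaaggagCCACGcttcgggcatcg
Calr, chr8:84847063-84847105, minus strand: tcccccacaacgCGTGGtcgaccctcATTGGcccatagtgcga
Canx, chr11:50325788-50325830, minus strand: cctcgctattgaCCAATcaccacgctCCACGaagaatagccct
Pdia6, chr12:17266479-17266521, plus strand: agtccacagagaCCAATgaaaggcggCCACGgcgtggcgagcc
Dnajc3, chr14:118937815-118937857, plus strand: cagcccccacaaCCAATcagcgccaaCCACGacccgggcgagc
Syvn1, chr19:6046520-6046562, plus strand: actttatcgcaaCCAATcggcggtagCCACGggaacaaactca
Derl3, chr10:75893230-75893272, plus strand: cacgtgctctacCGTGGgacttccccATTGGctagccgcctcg
Creld2, chr15:88819508-88819550, plus strand: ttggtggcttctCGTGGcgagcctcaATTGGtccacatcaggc
Herpud1, chr8:94386365-94386399, plus strand: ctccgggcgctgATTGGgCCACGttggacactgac

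With vehicle, none of these genes differed by genotype past the test, and their median was near zero. Over the 20 measured genes with an ERSE the median difference was -0.02, with 1 gene not overlapping between the groups. That gene was *Alg12*, a mannosyltransferase of N-glycan assembly, which shares its element with *Creld2* on the opposite strand. *Alg12* read 6.53, 6.73 and 6.46 in wild-type liver and 7.11, 6.97 and 6.76 in *Atf6a*-/- liver, a difference of 0.38. With TM the same 20 genes had a median of -0.35 and 7 were called lower, against 1.53% of all genes called lower and 2.89% called higher. The 9 genes with an ERSE-II had a median of 0.09 with vehicle.

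Among the 20 ATF6 targets the median difference with vehicle was 0.01, beside 0.00 for all genes. There were 11 above zero and 9 below, 2 targets did not overlap between the groups (both higher), and 14 had an interval within 1.5-fold. The main ER chaperone *Hspa5* (BiP) read 12.34, 13.16 and 12.32 in wild-type animals and 12.90, 12.61 and 12.93 in *Atf6a*-/- animals. The groups overlapped, since wild-type animal 2 was the highest of all 6, and the difference was 0.21 with an interval of -0.20 to 0.61. *Hsp90b1* (GRP94), the ER member of the HSP90 family, read 12.46, 12.29 and 12.51 against 12.39, 12.24 and 12.25, a difference of -0.13. The lectin chaperones *Calr* and *Canx* differed by 0.04 and -0.09. *Pdia4*, an oxidoreductase of the ER, was 1 of the 2 non-overlapping targets. It read 9.36, 9.23 and 9.46 against 9.64, 9.52 and 9.60, a difference of 0.24.

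The targets with the largest loss with TM had smaller differences with vehicle, of which *Derl3* had the largest downward one. *Derl3*, an ER-associated degradation factor, read 7.92, 7.54 and 7.62 in wild-type and 7.68, 6.77 and 6.85 in *Atf6a*-/- liver. *Atf6a*-/- animal 1 lay within the wild-type range, and the difference was -0.59, just past 1.5-fold and the lowest of the 20 targets, compared with -3.84 with TM. Over the alternative settings the vehicle difference of *Derl3* ran from -0.88 to -0.43. The interaction, the genotype difference with TM minus that with vehicle, was -3.25 (limma adjusted p = 0.00102). *Creld2*, a secreted ER stress protein, read 9.09, 9.82 and 9.17 against 9.44, 8.79 and 9.12, a difference of -0.24 with vehicle and -3.15 with TM. *Pdia4* went from 0.24 with vehicle to -2.67 with TM, with an interaction of -2.91 (adjusted p = 5.79e-05). *Sel1l*, the adaptor of the HRD1 ligase complex, differed by 0.01 with vehicle and -1.68 with TM, and *Syvn1*, the HRD1 ligase itself, by 0.21 and -1.47. Of the 20 targets, 12 were called lower with TM and 9 had a called interaction, against 1.81% of all genes with a called interaction. The 2 comparisons share no animals.

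**Figure D2:**
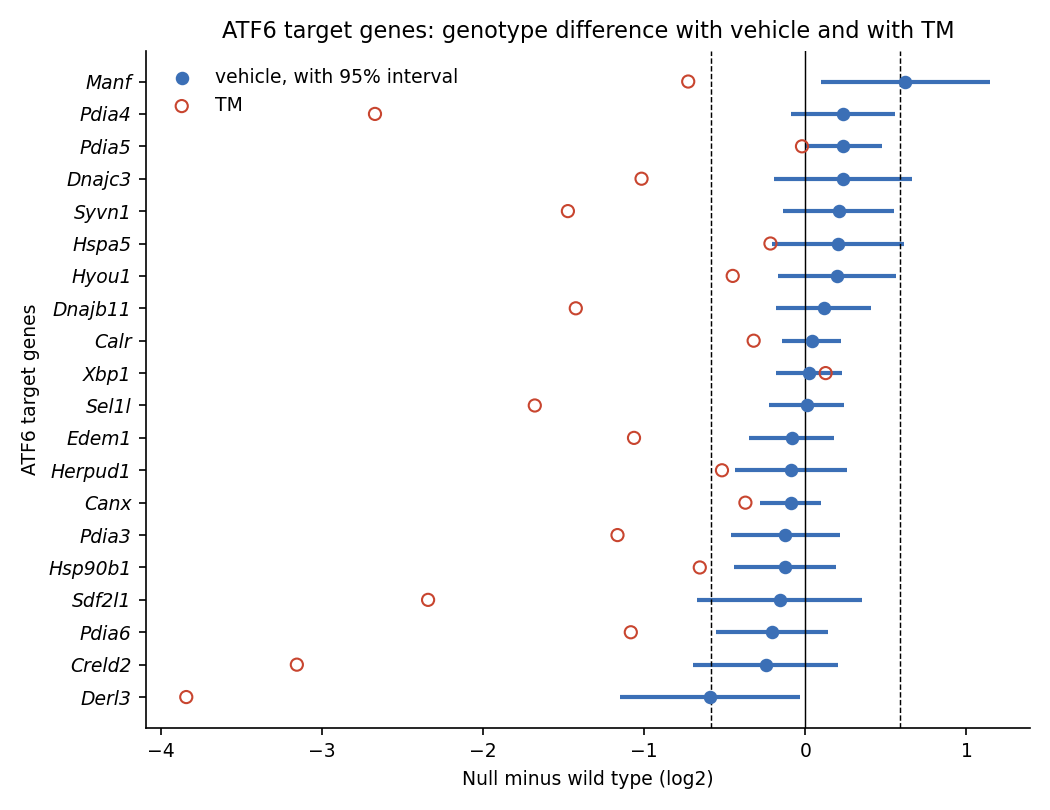
Genotype difference (log2, horizontal axis) of the 20 measured ATF6 targets with vehicle (filled, with the 95% interval) and with TM (open). Dashed lines mark 1.5-fold. The vehicle differences lie between -0.59 and 0.62, and the TM differences reach -3.84.

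*Manf*, which encodes a secreted neurotrophic factor retained by BiP, showed the largest upward difference of the targets. It read 10.72, 11.97 and 10.95 in wild-type and 11.98, 11.69 and 11.82 in *Atf6a*-/- animals. Wild-type animal 2 lay within the *Atf6a*-/- range and the others well below it, and the difference was 0.62. Without wild-type animal 2 it was 1.00 (adjusted p = 0.0217). That animal was 1 of the 2 with Y-linked signal, and what its other differences contribute was not tested.

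The relatives of ATF6 gave 1 value of interest. *Atf6b*, which encodes the paralogue ATF6β, read 5.79, 6.65 and 6.20 in wild-type and 7.12, 6.81 and 6.63 in *Atf6a*-/- animals. The groups overlapped by the margin between 6.65 and 6.63, and the difference was 0.64, with an interval of 0.18 to 1.10. *Creb3l1*, an ER-bound factor of the same family, read 5.95, 5.79 and 5.89 against 6.27, 6.04 and 6.28 and was the list's single non-overlapping gene above zero, at 0.32. *Creb3l3* (CREBH), the liver member, differed by -0.05. The proteases that cut ATF6, *Mbtps1* and *Mbtps2*, differed by -0.12 and -0.28. Over the 13 measured genes of the list the median was -0.02.

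No gene of the other UPR arms passed the test, and the PERK arm held differences in both directions. In the IRE1 and XBP1 list no gene of 12 had groups that did not overlap, and the median was 0.04. *Xbp1* read 12.45, 12.53 and 12.41 against 12.65, 12.34 and 12.47, a difference of 0.02 with an interval of -0.18 to 0.23. *Ern1*, which encodes IRE1α, differed by -0.16. In the PERK and ATF4 list 2 genes of 18 were lower without overlap. Its median of 0.04 covers values from -0.41 to 1.25, the median absolute difference was 0.27 against 0.08 for all genes, and 9 of 18 intervals lay within 1.5-fold. *Ddit3*, which encodes the stress factor CHOP, read 7.08, 7.23 and 7.22 in wild-type and 6.83, 6.85 and 6.85 in *Atf6a*-/- animals. These groups were narrow and separate, with a difference of -0.33. The second was *Atf3*, a stress-induced transcription factor, at -0.31, where the TM difference was 1.24 and the interaction 1.55 (adjusted p = 0.00632). *Atf4* read 10.44, 10.89 and 10.38 against 10.84, 10.73 and 10.89 and differed by 0.25, with overlap. *Asns*, the ATF4 target for asparagine synthesis, had a mean difference of 1.25 that came from 1 animal, since *Atf6a*-/- animal 3 read 10.74 and the other 5 arrays 6.12 to 7.95.

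The rest of the secretory pathway showed small values that were mostly above zero. In ER translocation and N-glycosylation 34 of 45 genes were above zero, with a median of 0.12, and 6 were higher and 2 lower without overlap. In ER to Golgi transport 36 of 49 were above zero, with a median of 0.12 and 4 higher without overlap. The cytosolic tRNA synthetases (16 of 19, median 0.14) and the proteasome subunits (27 of 31, median 0.08) behaved alike, as did ER-associated degradation (20 of 25, median 0.11). These lists varied together between animals. Each was lowest in wild-type animal 1, and in wild-type animal 2 each list's level lay inside or above the *Atf6a*-/- range. *Tmed3*, a cargo receptor of ER to Golgi vesicles, read 8.59, 9.42 and 8.93 in wild-type and 9.97, 9.62 and 9.60 in *Atf6a*-/- animals. All 3 *Atf6a*-/- values lay above, with a difference of 0.75. *Sec23b*, a COPII coat subunit, read 9.06, 10.45 and 9.15 against 10.74, 10.27 and 10.24 and differed by 0.86, with wild-type animal 2 again inside the *Atf6a*-/- range. *Selenos*, which anchors p97 at the ER, differed by 0.62 and *Surf4*, a cargo receptor, by 0.47. *Tusc3*, a subunit of the oligosaccharyltransferase, went the other way at -0.51, from 6.74, 7.20 and 7.47 to 6.48, 6.66 and 6.72.

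**Figure D3:**
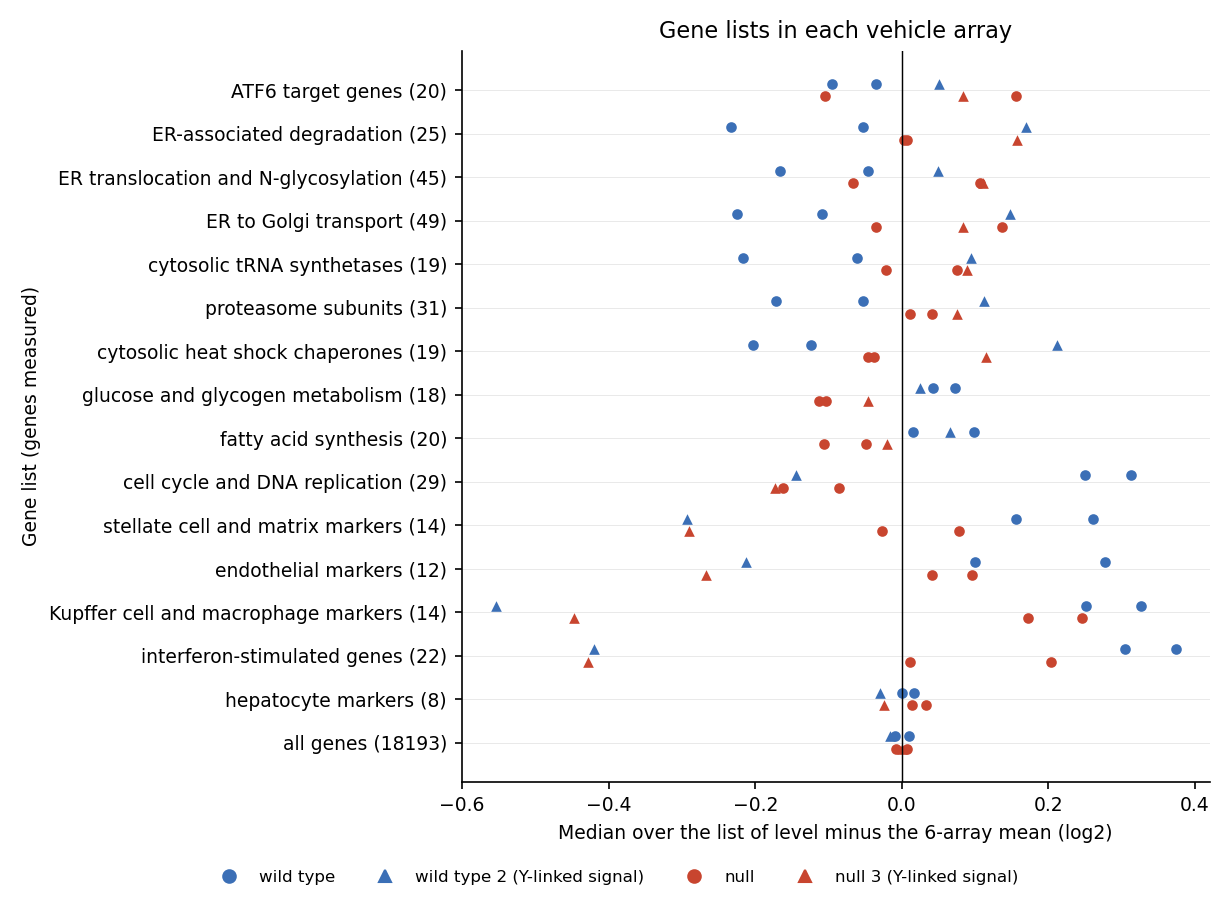
Level of 16 gene lists in each of the 6 vehicle arrays, as the median over the list of each gene's level minus its 6-array mean (log2, horizontal axis). Circles and triangles are animals without and with Y-linked signal. The glucose and fatty acid synthesis lists separate the genotypes, the former from 0.03 to 0.07 in wild type and -0.11 to -0.05 in null animals, whereas the macrophage list separates the 2 animals with Y-linked signal from the other 4.

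Pyruvate kinase of liver, *Pklr*, had the smallest unadjusted p of all genes. It read 10.17, 9.88 and 9.79 in wild-type and 9.09, 8.84 and 9.10 in *Atf6a*-/- animals. The groups were far apart, with a difference of -0.94 ± 0.13 (SE, n = 3 and 3; 1.92-fold; limma adjusted p = 0.184). Both other *Pklr* probesets also separated the groups, with differences of -0.70 and -0.88. With TM the difference was 0.33, and the interaction of 1.27 had an adjusted p of 0.00515. *Pklr* belonged to a list of 18 genes of glucose and glycogen metabolism, in which 7 were lower and 0 higher without overlap, where 3.68% of all genes were lower without overlap. The list's median was -0.14. *Slc2a2*, the glucose transporter GLUT2, read 12.86, 12.68 and 12.86 against 12.58, 12.49 and 12.49, a difference of -0.28. Glycogen phosphorylase *Pygl* read 12.49, 12.25 and 12.55 against 12.07, 12.13 and 12.04, a difference of -0.35. Glycogen synthase *Gys2* and the glycogen-targeting phosphatase subunit *Ppp1r3c* differed by -0.41 and -0.64. *Ugp2*, which makes UDP-glucose, and *Slc37a4*, the glucose-6-phosphate transporter, differed by -0.21 and -0.28. *G6pc*, the phosphatase that releases glucose, had a mean difference of 1.03 with groups that overlapped widely, at 9.45, 12.02 and 8.68 against 11.02, 10.19 and 12.02. Both animals with Y-linked signal read 12.02.

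Most genes of the fatty acid synthesis list had a lower mean in *Atf6a*-/- animals, while no single gene of it passed the test. Of 20 genes 16 were below zero, with a median of -0.17, 1 lower and 1 higher without overlap. None had an unadjusted p under 0.05 in limma. The level of the list was 0.02, 0.07 and 0.10 in wild-type and -0.05, -0.11 and -0.02 in *Atf6a*-/- animals, which did not overlap. Levels of the serine and one-carbon list and of the oxidative phosphorylation list did not overlap either. List levels were not tested, and an exact permutation test of 3 against 3 cannot go below 0.1. *Fasn*, fatty acid synthase, read 11.55, 11.14 and 11.30 against 11.25, 10.80 and 10.61, a difference of -0.44 with overlap. *Acaca*, acetyl-CoA carboxylase, was the gene lower without overlap, at -0.32. A separate list held 20 measured regulators and enzymes of the study but not *Acaca*, which the study also followed. None of those 20 had groups that did not overlap. *Ppara* read 11.72, 11.62 and 10.62 against 11.77, 11.40 and 11.30 and differed by 0.17. *Cebpa* differed by -0.06 with an interval of -0.29 to 0.18, and *Hnf4a* by -0.17. *Ppargc1a* differed by 0.10, while its interval from -0.62 to 0.81 did not exclude 1.5-fold. *Dgat2*, the last step of triglyceride synthesis, was the steadiest, between 12.48 and 12.54 in all 6 animals.

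Outside these lists, the genes with the largest statistics in the upward direction were *Fam53b*, *Cyp26b1* and *Gmppa*. *Cyp26b1*, a retinoic acid hydroxylase, read 6.42, 6.16 and 6.31 in wild-type and 7.86, 7.81 and 7.36 in *Atf6a*-/- animals. The difference was 1.38, or 2.61-fold, and with TM it was 0.10. Its relative *Cyp26a1* had a mean difference of 1.38 too, with overlap and a pooled SD of 1.04. *Hspb1*, the small heat shock protein HSP27, read 8.97, 10.05 and 9.32 against 10.85, 10.07 and 11.04. The groups touched without overlapping, the difference was 1.21, or 2.31-fold, and a second probeset gave 1.37. *Wfs1*, which encodes the ER membrane protein wolframin, read 7.37, 8.15 and 7.25 against 8.39, 8.17 and 8.32, a difference of 0.71. *Serpinb1a*, a protease inhibitor, differed by 1.29 and *Rcan2*, a calcineurin regulator, by 0.79, both without overlap.

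In the downward direction *Lztfl1*, *Arsg*, *Magee1* and *Gcc1* followed *Pklr* and *Atf6* in the size of the statistic. The brightest *Lztfl1* probeset differed by -0.47 and another by -0.42, both without overlap. Its dimmer probesets differed by -0.13 and -0.17 with overlap, and by 0.12 in the other direction without overlap. *Arsg*, a lysosomal sulfatase, read 7.69, 7.78 and 7.74 against 7.23, 7.24 and 7.43, a difference of -0.44. With TM it was 0.28, and the interaction was 0.72 (adjusted p = 0.0226). *Gcc1*, a Golgi coiled-coil protein, behaved similarly, at -0.47 with vehicle and 0.66 with TM, with an interaction of 1.12 (adjusted p = 0.00433). *F11*, coagulation factor XI, read 10.94, 10.48 and 11.46 against 9.96, 10.05 and 10.22, a difference of -0.88. *Slc22a7*, an organic anion transporter, read 9.73, 9.75 and 9.81 against 8.25, 8.74 and 9.15, a difference of -1.05. *Id1*, a helix-loop-helix inhibitor induced by bone morphogenetic proteins, read 8.74, 8.12 and 8.67 against 7.38, 7.34 and 7.68, a difference of -1.04. *Clec2h*, a lectin gene, separated the groups on 3 probesets, by -0.98 to -2.02. *Atf6a*-/- animal 3 was the highest of its group on each. On the probeset that differed by -1.88 it read 6.16, against 6.18 in wild-type animal 2. *Wdfy1* was singled out after its values were seen. With each gene at its brightest probeset, it had the second largest mean difference, at -1.97. Its groups overlapped, as *Atf6a*-/- animal 3 read 8.21 and wild-type animal 1 read 8.11.

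**Figure D4:**
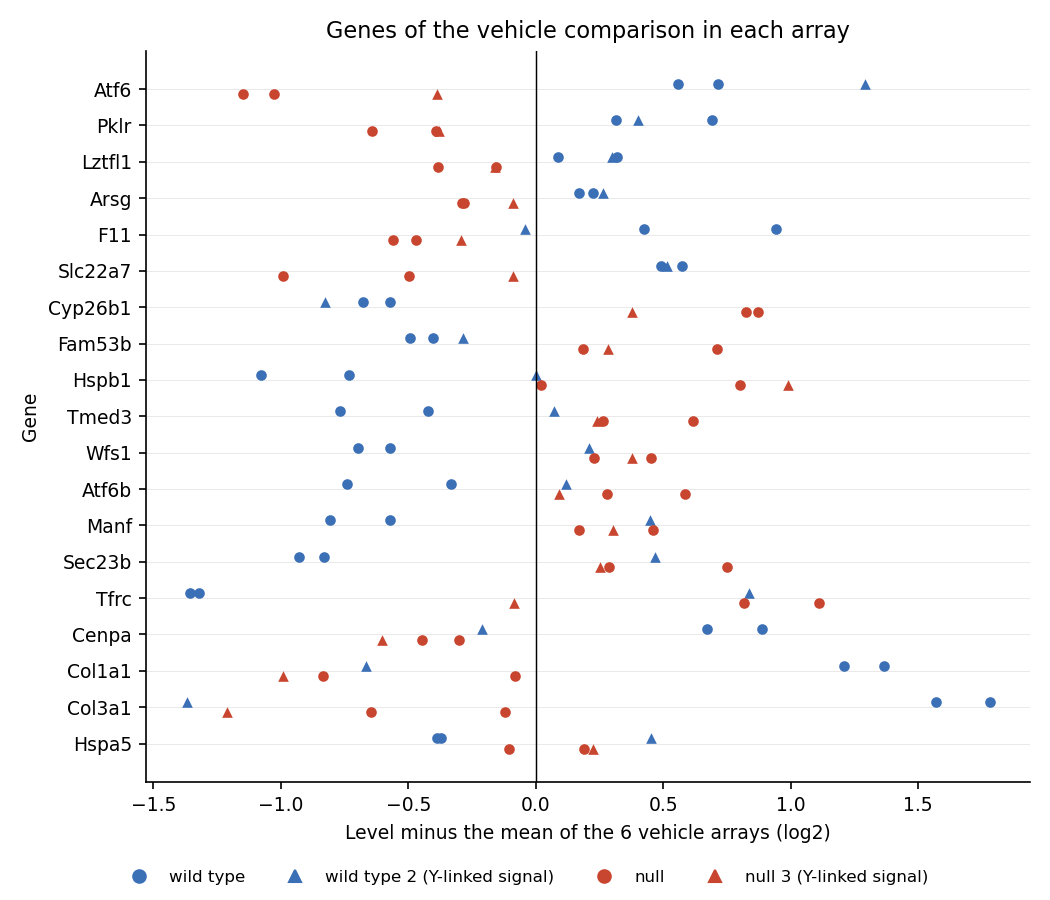
Level of 19 genes in each vehicle array, relative to the 6-array mean of the gene (log2, horizontal axis). Blue marks wild-type and red null animals, and triangles the animal of each genotype with Y-linked signal. *Atf6*, *Pklr* and *Cyp26b1* separate the genotypes, while for *Manf*, *Sec23b*, *Col1a1* and *Col3a1* wild-type animal 2 lies with or beyond the null animals.

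Whether some of the larger differences were called depended on 1 array. Without wild-type animal 2, limma called 21 probesets higher and 43 lower, where all arrays together gave 0 of each. In all 21 and in 40 of the 43, that animal lay beyond both other wild-type animals on the *Atf6a*-/- side. These probesets were chosen by leaving that animal out, so its position is largely built into the choice and is no separate evidence. Among the vehicle animals left, only *Atf6a*-/- animal 3 had Y-linked signal, so that signal was no longer balanced between the genotypes. The higher calls made without wild-type animal 2 included *Sec23b*, *Sec24d*, *Tmed3*, *Manf*, *Selenos*, *Wfs1* and *Hspb1*. The lower ones included *Atf6*, *Pklr*, *Col1a1*, *Col3a1*, *Lyve1*, *Cenpa*, *Mcm5* and *Birc5*. *Atf6* and *Pklr* were exceptions to the position of that animal. Without that animal the difference of the brightest *Atf6* probeset went from -1.71 to -1.49 and that of *Pklr* from -0.94 to -0.97. *Tfrc*, the transferrin receptor, was the largest of the higher genes and an example of dependence on wild-type animal 2. It read 7.33, 9.52 and 7.37 in wild-type and 9.80, 9.50 and 8.60 in *Atf6a*-/- animals, a difference of 1.23 with all arrays and 1.95 without wild-type animal 2. The other, dimmer *Tfrc* probesets differed by only 0.28 and 0.05 with all arrays. Leaving out all 4 arrays with Y-linked signal kept that signal balanced, and 3 probesets were then called higher and 13 lower. Of the genes named in this paragraph, *Atf6*, *Sec23b*, *Tfrc*, *Col3a1* and *Cenpa* were among those calls and the others were not.

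Some proliferation genes and the collagens depended on the same animal, and others did not. In the cell cycle list 25 of 29 genes were below zero, with a median of -0.25, and 4 were lower without overlap. The list level was 0.25, -0.14 and 0.31 in wild-type and -0.16, -0.09 and -0.17 in *Atf6a*-/- animals. Wild-type animal 2 thus lay within the *Atf6a*-/- range. *Ccne2*, cyclin E2, read 4.30, 4.39 and 4.36 in wild-type and 3.58, 3.87 and 3.77 in *Atf6a*-/- animals, all below the median level of the array. The difference was -0.61 with vehicle and -1.93 with TM, and it was -0.59 without wild-type animal 2. *Rrm2*, a subunit of ribonucleotide reductase, read 7.01, 7.33 and 7.26 against 6.26, 5.56 and 6.78, a difference of -1.0 and of -0.94 without that animal. *Cenpa*, the centromeric histone, read 6.97, 6.09 and 7.19 against 5.85, 6.0 and 5.70, a difference of -0.90 and of -1.23 without it. Among the 14 stellate cell and matrix markers no gene separated the groups. *Col1a1* read 7.08, 5.05 and 6.93 against 4.89, 5.64 and 4.73, and *Col3a1* read 11.18, 8.25 and 11.39 against 8.97, 9.49 and 8.40. Wild-type animals 1 and 3 were the high ones for both collagens, and the differences were -1.27 and -1.32. Another, dimmer probeset of *Col1a1* differed by only -0.14, and that of *Col3a1* by -1.49.

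Macrophage and endothelial markers moved with the Y-linked signal. Of 14 Kupffer cell and macrophage markers 13 were lower in both animals with Y-linked signal than in all 4 others, as were 11 of 12 endothelial and 8 of 14 stellate markers, where 2879 of 18193 genes were lower in those 2 animals and 2578 higher. The summed linear signal of the macrophage markers ran from 10900 to 19600 in wild-type and from 11700 to 18400 in *Atf6a*-/- animals. That of the stellate and matrix markers ran from 10200 to 15600 and from 9960 to 12600. Of the 8 hepatocyte markers 5 were also lower in both of those animals, whose sums of 165000 and 163000 were the lowest of a narrow range up to 171000. Of 7 cholangiocyte markers 2 were lower and 1 higher in both. Some sums went the other way. The sum of the 3 erythroid markers was 1330 and 1210 in those 2 animals, against 300 to 497 in the other 4. That of the 10 B, T and NK cell markers was 979 and 983 against 621 to 813. Of these 10, however, 4 were lower and 1 higher in both of those animals. The mean levels of the macrophage markers were between 6.75 and 11.69. The part of these cells in the matrix and cell cycle values was not tested.

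The sex-biased liver genes spread widely between vehicle animals and did not separate the genotypes. Their pooled SD within groups had a median of 1.22, against 0.14 for all genes, and none of 32 separated the genotypes. In 29 of the 32, or 90.6%, both animals with Y-linked signal lay above or below all 4 others. *Cyp4a12a*, a male-biased P450, read 4.86, 12.42 and 6.84 in wild-type and 4.95, 6.19 and 12.65 in *Atf6a*-/- animals. *Cyp2b9*, a female-biased P450, read 12.09, 5.43 and 11.74 against 12.28, 12.40 and 3.89. The genotype difference of *Hsd3b5*, a male-biased steroid dehydrogenase, was the largest of all genes at -2.92, but its values were 8.62, 12.78 and 10.60 against 5.64, 5.02 and 12.60. Among the 4 animals without Y-linked signal, a split added after the data were seen, 11 of the 32 were lower and 3 higher in *Atf6a*-/- animals without overlap. In either direction that was 43.8%, against 38.7% of all genes, of which 3578 of 18193 were lower and 3466 higher.

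**Figure D5:**
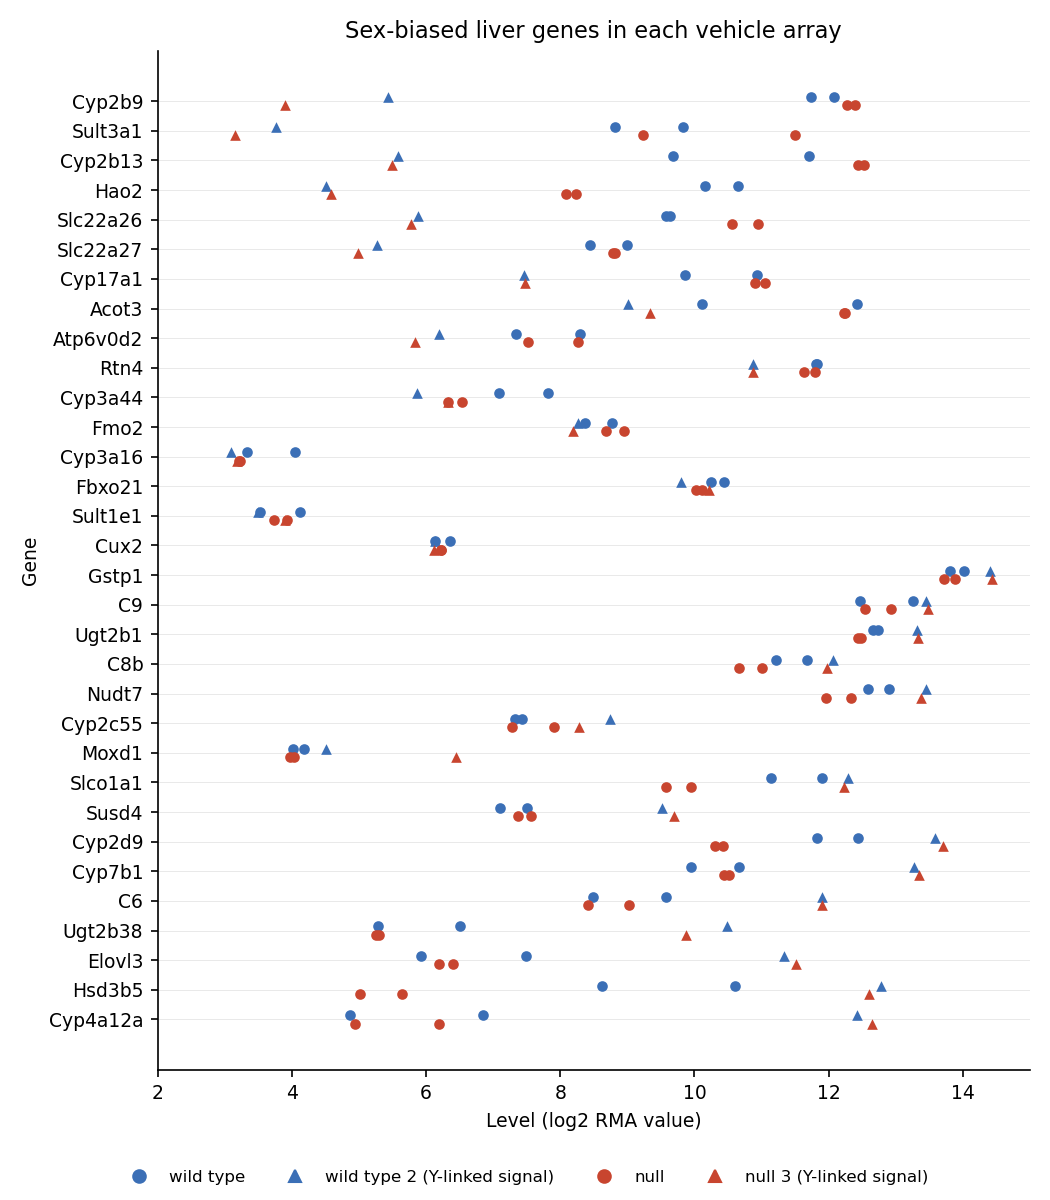
Level (log2 RMA value, horizontal axis) of the 32 measured sex-biased liver genes in each vehicle array, ordered by the difference between animals with and without Y-linked signal. Triangles mark the 2 animals with Y-linked signal, which lay together at one end for 29 genes.

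Among other lists few genes or none separated the genotypes. The 23 clock genes had a median of -0.06 and a median pooled SD of 0.33, with 1 gene higher without overlap. The 22 interferon-stimulated genes had a median of -0.17 and a median SD of 0.37, with 18 below zero, none separate and 9 intervals within 1.5-fold. Over the alternative settings that median ran from -0.39 to 0.06, and the list level was -0.42 and -0.43 in the animals with Y-linked signal against 0.01 to 0.37 in the others. The 27 acute phase genes had a median of 0.00, with none separate. By contrast the 44 genes of oxidative phosphorylation all had an interval within 1.5-fold, and so did the 31 proteasome subunits and 30 of 32 cytosolic ribosomal protein genes.

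The genes beside *Atf6* on chromosome 1 were read separately, since a targeted allele can carry flanking DNA of another strain with it, and the strain was not stated. None of the 12 nearest measured genes, 6 on each side, separated the genotypes, and their differences ran from -0.26 to 0.29. They included *Dusp12*, a phosphatase gene, at -0.14 and *Uap1*, an enzyme of UDP-N-acetylglucosamine synthesis, at 0.13. Among the 100 nearest genes 8 separated the genotypes, or 8.0%, near the 8.53% of all genes, and their median absolute difference was 0.09 against 0.08. *Pigm*, a mannosyltransferase of anchor synthesis, and *Blzf1*, a Golgi protein, were singled out after their values were seen, among the 200 nearest genes. They differed by -0.45 and -0.51 with vehicle and by 0.60 and 0.66 with TM.

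Few genes differed between the genotypes in the same way in both treatments. Of 1551 genes whose vehicle groups did not overlap, 142 also separated in the same direction with TM, which was 9.16% of the vehicle genes and 3.31% of the 4293 genes, 23.6% of all, that separated with TM. In the opposite direction there were 189, or 12.2% and 4.4%. Only 4 genes, each at its brightest probeset, moved the same way by over 1.5-fold in both without overlap, *Atf6*, *Wipi1*, *Ccne2* and *Hspb1*. *Wipi1*, an autophagy gene, read 8.41, 8.33 and 8.42 in wild-type and 7.63, 7.39 and 8.15 in *Atf6a*-/- liver with vehicle, a difference of -0.66, and differed by -0.82 with TM (adjusted p = 0.0231).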

How the data were processed

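Total liver RNA of 12 mice was hybridised to Affymetrix mouse arrays, 1 array per animal. Per the labels, the authors processed the arrays by RMA with affy and limma and deposited log2 values for each probeset. Background correction, quantile normalization and probe summary were thus done before deposit, which can compress low values. Versions and probe detection calls were not given in the sources used here. Depth does not apply to arrays, and their number limits the precision.

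Of 45101 probesets, 64 Affymetrix controls were left out. Gene names came from the platform annotation, in which 34945 probesets named 1 gene, 932 several and 9160 none. Each of 18193 genes was represented by its brightest own probeset. limma 3.58.1 in R 4.3.3 fitted 1 mean per group over all 12 arrays, with 8 residual and 4.25 prior degrees of freedom. p-values were adjusted by Benjamini-Hochberg over 45037 probesets, and called means an adjusted p under 0.05 and a difference over 1.5-fold. Intervals are 95% and use the moderated standard error. The interaction is the genotype difference with TM minus that with vehicle. The script was tested on simulated data.

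Groups were taken from the labels. Nothing says that the animals came from separate litters, so p-values measure the spread between these animals. With 3 against 3, an exact permutation test of a single value cannot go below 0.1. Genes named in the text were *Atf6*, the UPR and study lists in full, the 4 members of each other list with the largest statistic, the 12 largest statistics and the 10 largest non-overlapping differences in each direction among genes above the median level, the 15 genes of largest spread, the 6 nearest neighbours of *Atf6* on each side, and the sex and clock lists in full. Others are named as chosen after their values were seen or belong to a count. The members and lists were chosen with earlier results of these data known. Alternatives covered normalization, arrays, covariates, thresholds and probesets.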

Additional observations from a re-analysis of the deposited data

Results flagged for a closer look

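Over all genes, 329 of 18193 (1.81%) had a genotype difference that differed between TM and vehicle by over 1.5-fold, by the interaction term of limma with an adjusted p under 0.05. The 21 given here are a part of these. Further members of the lists passed too, such as 2 clock genes, 4 immediate early genes and 4 cytosolic tRNA synthetases. Each value below is the difference with TM minus that with vehicle on the log2 scale.

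Genes of ER folding and degradation had a lower genotype difference with TM. The values were -2.91 for *Pdia4* (adjusted p = 5.79e-05), -3.25 for *Derl3* (0.00102), -2.91 for *Creld2* (0.000465) and -2.18 for *Sdf2l1* (0.00754). They were -1.68 for *Syvn1* (0.00335), -1.69 for *Sel1l* (0.000193), -1.54 for *Dnajb11* (0.00206), -0.98 for *Edem1* (0.017) and -1.04 for *Pdia3* (0.0427). Their vehicle differences ran from -0.59 for *Derl3* to 0.24 for *Pdia4*. *Ccne2* also had a negative value, -1.32 (0.00873).

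Stress genes of the PERK arm and several others had a positive value. It was 1.55 for *Atf3* (0.00632), 1.2 for *Ppp1r15a* (0.000985) and 0.96 for *Sesn2* (0.0325). It was 1.59 for the lipogenic regulator *Srebf1* (0.0293) and 1.27 for *Pklr* (0.00515). The genes *Gcc1*, *Arsg*, *Smc4*, *Gm15408*, *Blzf1* and *Pigm* were lower in *Atf6a*-/- liver with vehicle and higher with TM in their means. Their values were 1.12 (0.00433), 0.72 (0.0226), 0.92 (0.0359), 1.27 (0.00141), 1.17 (0.0258) and 1.05 (0.00982).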

How the results depend on the processing

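With all arrays limma called 0 probesets higher and 0 lower, and this changed with few settings. Centring on *Btf3* and *Ppia* gave 0 higher and 1 lower. Adjusting the vehicle arrays alone for the balance of *Xist* and Y-linked signal gave 1 and 1, and dropping the Y-signal animals, 4 in all, gave 3 and 13. Without adjustment limma gave 47 and 88, and a test without variance moderation 9 and 26. Leaving out 1 animal at a time gave 0 to 21 higher and 0 to 43 lower, the upper values without wild-type animal 2. *Atf6* passed the adjusted threshold at -1.65 when centred, at -1.73 with the adjustment and at -1.73 without those 4 animals, and it passed unadjusted at -1.71 without moderation. Its range over single animals left out was -1.94 to -1.49, with an adjusted p of 0.0419 without wild-type animal 2. The intervals of 2492 genes lay within 1.2-fold. The median of the ERSE genes turned from -0.02 to 0.0375 when centred on *Btf3* and *Ppia*. The cause of these changes was not tested, and the number of arrays limits the precision.

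Same-numbered vehicle animals of the 2 genotypes had correlations of 0.394, -0.476 and -0.29 in their deviations from the group means. Between the animals with Y-linked signal, *Atf6a*-/- animal 3 and wild-type animal 2, the correlation was 0.606. As those animals carry different numbers, the correlations cannot show whether the numbers pair the samples. Fitting the replicate block gave 0 calls in either direction, with a difference in *Atf6* of -1.71 (adjusted p = 0.463).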
